A study of Oryctolagus cuniculus with 20 samples.

Results

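The genes described here encode membrane carriers of glucose, lactate and other monocarboxylates, amino acids and fatty acids. They are the rows of a rabbit (Oryctolagus cuniculus) RNA sequencing table whose gene name belongs to the solute carrier families SLC1, SLC2, SLC3, SLC6, SLC7, SLC16, SLC27, SLC38 and SLC43. Transcripts were summed per gene, and 74 of the 23669 genes in the table met this rule. The study moved a piece of common carotid artery into a vein and sequenced total RNA from 20 vessel samples in 5 groups of 4 libraries. The grafted groups are the transplanted arteries of day 30 and of day 14 after surgery, and the veins are unoperated external jugular veins. The controls are the opposite carotid arteries, not operated, taken on day 30 and on day 14. Every sample, controls and veins included, carries the same treatment label for transplantation and the cell line name HASMC, while its other labels describe rabbit tissue, and no age, strain or sex is given. The labels call the libraries biological replicates without saying that each is a separate animal or that none is pooled, so p-values measure the spread between these samples.

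Glucose enters cells down its gradient through the SLC2 family (GLUT proteins), lactate and pyruvate cross with a proton through members of the SLC16 family, and the SLC27 family takes up long-chain fatty acids and couples them to coenzyme A. Large neutral amino acids are exchanged by light chains of the SLC7 family that need the SLC3A2 heavy chain to reach the cell surface, while SLC1 and SLC38 carriers load amino acids with sodium. In the vessel wall smooth muscle, endothelium, fibroblasts and invading leukocytes use different sets of these carriers. The rule also takes in genes that such a description does not cover: 13 SLC6 carriers, mostly of neurotransmitters, and the purine nucleobase carrier SLC43A3.

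The table holds FPKM, a level divided by transcript length and library size, so levels of different genes may be compared, but it holds no read counts and the depth is unknown. FPKM per library summed to between 327806 and 671582, and between 6759 and 7740 genes reached 1 FPKM. Groups differed in spread. Among the 1265 genes with a mean above 30 FPKM, the SD on the log2 scale had a median of 0.189 in grafts and 0.198 in controls of day 30, 0.324 in grafts and 0.0733 in controls of day 14, and 0.135 in veins. The 4 libraries of control day 14 were nearly alike, and in each of the other groups 1 library lay close to a weighted mean of the other 3 (graft day 30 replicate 4, control day 30 replicate 2, graft day 14 replicate 3 and vein replicate 4). Results are therefore also given with control day 14 counted as 1 sample, without those 4 mixture-like libraries, and with both changes. The smooth muscle markers ACTA2, MYH11 and others were high in the control arteries with summed levels of 6085 to 8739 FPKM on day 30 and 8323 to 8846 FPKM on day 14. SMTN, of the same list, is listed at 0 in all libraries and PECAM1, of endothelium, is listed at 0 in all control arteries, so a listed 0 may be a failed estimate.

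Most summed cell markers moved strongly with grafting. Summed smooth muscle markers were at 1355 to 1784 FPKM in grafts of day 30 and 614 to 929 FPKM in grafts of day 14, below every control library. Macrophage markers, which include CD68 and CD163, summed to 332 to 841 FPKM in grafts of day 30 against 18.7 to 38.9 FPKM in their controls, and to 494 to 1095 FPKM in grafts of day 14 against 14.6 to 16.8 FPKM in their controls. CD68 is listed at 0 in all control arteries and LAPTM5 in all libraries. Adipocyte markers summed to 534 to 730 FPKM in grafts of day 30 against 43.5 to 354 FPKM in controls, and to 244 to 906 FPKM in grafts of day 14 against 41.0 to 42.6 FPKM in controls. Much of this sum is FABP4, a gene of macrophages too. By means it held 308 of 645 FPKM in grafts and 132 of 167 FPKM in controls of day 30. On day 14 it held 508 of 574 FPKM in grafts and 22.7 of 42.1 FPKM in controls. CIDEC, of the same list, is listed at 0 in all libraries, and LEP in all grafts of day 14. Striated muscle markers went the other way, with 26.5 to 58.7 FPKM in grafts of day 30 against 470 to 594 FPKM in controls, and 7.58 to 78.8 FPKM in grafts of day 14 against 560 to 621 FPKM in controls. Endothelial markers summed to 410 to 567 FPKM in grafts against 39.2 to 94.8 FPKM in controls of day 30, and to 219 to 411 FPKM in grafts against 38.9 to 39.7 FPKM in controls of day 14. Cell cycle markers summed to 21.4 to 31.8 FPKM in grafts against 4.05 to 6.22 FPKM in controls of day 30, and to 36.8 to 79.3 FPKM in grafts against 2.19 to 2.71 FPKM in controls of day 14. T and B cell markers summed to 86.7 to 435 FPKM in grafts against 1.46 to 14.0 FPKM in controls of day 30. On day 14 they summed to 43.7 to 82.0 FPKM in grafts against 0.24 to 2.15 FPKM in controls. Fibroblast markers summed to 4368 to 5046 FPKM in grafts against 1614 to 3231 FPKM in controls of day 30, and to 3182 to 3918 FPKM in grafts against 1717 to 1900 FPKM in controls of day 14. By gene they were mixed. In the tests described below, 3 of 7 were higher and 0 lower on day 30 (26% and 11.6% of all genes). On day 14, 2 were higher and 2 lower (36.5% and 17% of all genes). Their median log2 change was 0.67 on day 30, against 0.18 over all genes, and 0.23 on day 14, against 0.26. Nerve and Schwann cell markers were lower, with 8.64 to 25.5 FPKM in grafts against 25.9 to 82.1 FPKM in controls of day 30, and 5.36 to 32.3 FPKM in grafts against 66.1 to 78.5 FPKM in controls of day 14. Erythroid markers summed to at most 2.42 FPKM in any library. The part of these cell types in the results on carriers was not tested, and in whole tissue fewer cells of a type and less RNA per cell cannot be told apart.

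Of the 74 carriers, 23 reached 1 FPKM in at least 4 libraries and were tested, 31.1% of the carriers against 36.6% of all genes (8657 tested). Tests were made on log2(FPKM + 1) with limma, fitted over all 20 libraries and adjusted over the 8657 genes, with a threshold of 0.05. On day 30, 13 of the 23 passed, 7 higher and 6 lower in grafts, where the test called 37.6% of all genes, 26% higher and 11.6% lower. On day 14, 17 of the 23 passed, 10 higher and 7 lower in grafts, where it called 53.5% of all genes, 36.5% higher and 17% lower. The share of carriers called was 56.5% on day 30 and 73.9% on day 14, above the background on both days and mainly among the lower ones, an excess that was not tested. Their median log2 change was -0.08 on day 30, against 0.18 over all genes tested, and 0.53 on day 14, against 0.26. Graft and control libraries did not overlap for 12 of the 23 on day 30 (34.5% of all genes) and for 14 on day 14 (50.1% of all genes). Scaling of the libraries moved the split: with median-of-ratios, equal-sum and quantile scaling, which bring the median over all genes to between -0.06 and 0.03 on day 30 and between -0.02 and 0.09 on day 14, 4, 3 and 5 carriers were higher and 6, 6 and 7 lower on day 30, and 6 were higher and 8 lower on day 14 under each. A rise or fall is therefore relative to the scaling used.

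On both days 7 carriers rose, with SLC16A13, SLC2A8, SLC7A8, SLC38A6, SLC27A4 and SLC43A3 among them, and 5 fell, SLC2A1, SLC2A4, SLC2A12, SLC1A4 and SLC16A9. SLC16A1 passed on day 30 alone, and SLC3A2, SLC27A3, SLC27A6, SLC2A10 and SLC7A2 on day 14 alone. Both days have their own controls, and the difference between the effects of the days passed for 3 carriers, SLC2A4 (higher), SLC16A1 and SLC43A3 (both lower), where the test called 12.9% of all genes, 5.38% higher and 7.57% lower. The remaining 5 tested carriers, SLC7A5, SLC38A1, SLC38A2, SLC43A1 and SLC43A2, passed on neither day.

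**Figure D1:**
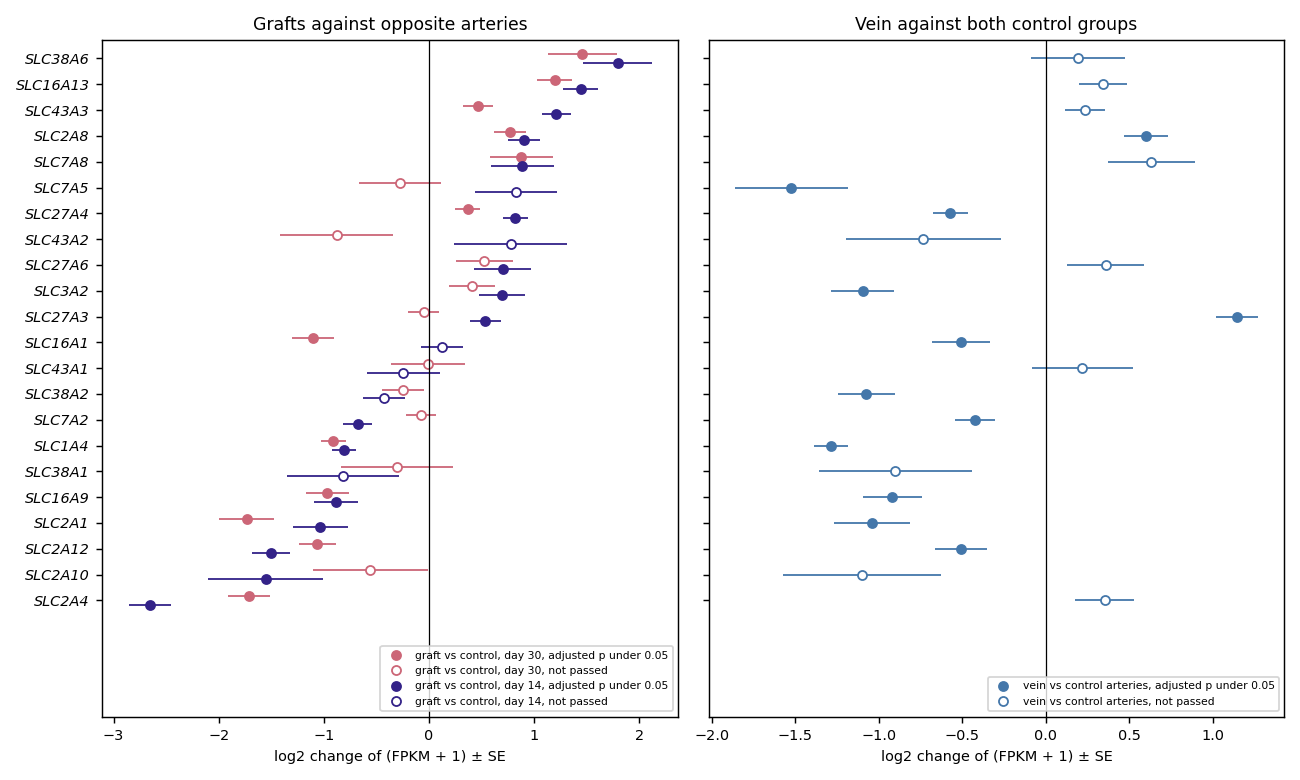
Log2 change of (FPKM + 1) with its standard error for the tested carriers, of which 1 is not shown. The left panel shows grafts against opposite arteries on day 30 and day 14, the right panel veins against both control groups together. Filled points passed the test at 0.05 after adjustment. SLC2A4, SLC2A1, SLC2A12, SLC1A4 and SLC16A9 lie on the lower side on both days, and SLC38A6 and SLC16A13 lie on the higher side.

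Amounts were concentrated in few genes. SLC3A2, SLC38A2 and SLC43A3 were the 3 highest carriers in each group, and together held 61.5% of the summed FPKM of the 74 in grafts and 53.3% in controls of day 30, 56.1% in grafts and 50.7% in controls of day 14, and 40.9% in veins. The hexose carriers held 5.94% in grafts and 13.0% in controls of day 30, and 5.06% in grafts and 15.4% in controls of day 14. Their summed level was 15.04 ± 2.67 FPKM in grafts and 33.2 ± 3.21 FPKM in controls of day 30, and 13.3 ± 2.82 FPKM in grafts and 31.4 ± 0.62 FPKM in controls of day 14 (SD, n = 4 libraries, here and for each mean that follows). Summed fatty acid carriers stood at 25.6 ± 1.98 FPKM in grafts and 20.4 ± 2.16 FPKM in controls of day 30, and at 32.4 ± 3.63 FPKM in grafts and 18.0 ± 0.605 FPKM in controls of day 14. Graft and control libraries did not overlap in these sums on either day. For the fatty acid carriers of day 30 the gap was very narrow, with 23.71 FPKM in the lowest graft and 23.57 FPKM in the highest control. The sums are of FPKM as given, without any of the other scalings.

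Of the 5 hexose carriers tested, SLC2A1, SLC2A4 and SLC2A12 fell in the grafts of both days, SLC2A8 rose on both, and SLC2A10 fell on day 14 only. SLC2A4 is GLUT4, the insulin-responsive carrier of muscle and fat. It held 3.84, 2.51, 3.32 and 2.88 FPKM in grafts of day 30 (replicates 1 to 4, as in each list of values that follows), against 10.3, 13.1, 13.6 and 13.2 FPKM in controls. On day 14 the grafts held 1.33, 1.72, 0.41 and 0.16 FPKM, against 11.1, 10.04, 10.3 and 9.87 FPKM in controls. All grafts lay far below all controls, and graft replicates 3 and 4 of day 14 were nearly without it. The changes on the log2 scale were -1.71 (SE 0.20, adjusted p = 2.94e-06) on day 30 and -2.66 (SE 0.20, adjusted p = 6.97e-09) on day 14, and both calls held under every alternative setting. The fall was smaller on day 30 than on day 14, with a difference of 0.94 (SE 0.28, adjusted p = 0.0365). That difference was lost in 18 of the 34 alternative settings, where adjusted p ran up to 0.682. Among them it was lost without graft day 30 replicate 1 (adjusted p = 0.0748), 3 (adjusted p = 0.0578) or 4 (adjusted p = 0.0518), control day 30 replicate 1 (adjusted p = 0.0708) or 2 (adjusted p = 0.0523), graft day 14 replicate 3 (adjusted p = 0.0762) or 4 (adjusted p = 0.0578), and each control of day 14 (adjusted p = 0.0568 to adjusted p = 0.0677). The summed striated muscle markers, lower in the grafts too, overlapped between the grafts of both days, and smooth muscle markers were higher in grafts of day 30 (1355 to 1784 FPKM) than in grafts of day 14 (614 to 929 FPKM). Their part in the SLC2A4 values was not tested.

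SLC2A1, or GLUT1, carries basal glucose uptake in most cells. Grafts of day 30 held 1.80, 4.89, 1.62 and 3.30 FPKM, against 8.14, 12.2, 14.6 and 11.1 FPKM in controls. In grafts of day 14 the values were 4.60, 3.88, 7.91 and 8.36 FPKM, against 13.6, 12.2, 13.1 and 13.8 FPKM in controls. Every graft was below every control of its day, while graft replicates 3 and 4 of day 14 stood well above replicates 1 and 2. The log2 changes were -1.74 (SE 0.26, adjusted p = 4.87e-05) on day 30 and -1.03 (SE 0.26, adjusted p = 0.00301) on day 14. The day 14 call was lost with control day 14 as 1 sample (adjusted p = 0.11) and with both changes (adjusted p = 0.161). The effects of the 2 days differed by -0.70 (SE 0.37, adjusted p = 0.234), which did not pass.

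SLC2A12, GLUT12, a lower-level carrier of the same family, averaged 0.623 ± 0.320 FPKM in grafts and 2.38 ± 0.596 FPKM in controls of day 30, and 0.275 ± 0.0614 FPKM in grafts and 2.64 ± 0.520 FPKM in controls of day 14. It fell by 1.06 on the log2 scale on day 30 (SE 0.18, adjusted p = 0.000133) and by 1.50 on day 14 (SE 0.18, adjusted p = 1.48e-06), and graft and control libraries did not overlap. It passed the filter only through the controls, where it is high, since no graft and 3 veins reached 1 FPKM. Near 1 FPKM the added 1 understates such changes. SLC2A10, GLUT10, of intracellular membranes and known in humans for arterial tortuosity syndrome, had 1.65, 0, 0 and 0 FPKM in grafts of day 14, against 1.47, 3.00, 3.47 and 3.47 FPKM in controls. Graft replicate 1 stood inside the control range and the other grafts were listed at 0, with a log2 change of -1.55 (SE 0.55, adjusted p = 0.0232). That call was lost without graft replicate 2 (adjusted p = 0.0552), 3 (adjusted p = 0.0575) or 4 (adjusted p = 0.0561), without control replicate 3 (adjusted p = 0.0542) or 4 (adjusted p = 0.0544), with the replicate number as a block (adjusted p = 0.0547) and in all 3 settings for the nearly alike libraries (up to 0.336).

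SLC2A8, GLUT8, sits mostly in intracellular membranes. Its level was 5.18, 6.32, 6.59 and 5.42 FPKM in grafts of day 30, against 3.40, 3.24, 2.59 and 2.90 FPKM in controls, and 3.92, 4.27, 6.67 and 7.17 FPKM in grafts of day 14, against 2.05, 2.92, 2.33 and 2.34 FPKM in controls. Each graft exceeded each control of its day. SLC2A8 rose by 0.77 on the log2 scale on day 30 (SE 0.15, adjusted p = 0.000588) and by 0.90 on day 14 (SE 0.15, adjusted p = 7.15e-05). With equal-sum scaling the day 30 rise no longer passed (adjusted p = 0.0839), and the day 14 rise did not pass with both changes for nearly alike libraries (adjusted p = 0.0778). By mean FPKM, SLC2A8 exceeded both SLC2A1 and SLC2A4 in grafts of day 30 and SLC2A4 in grafts of day 14, and lay below both in the controls of each day.

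**Figure D2:**
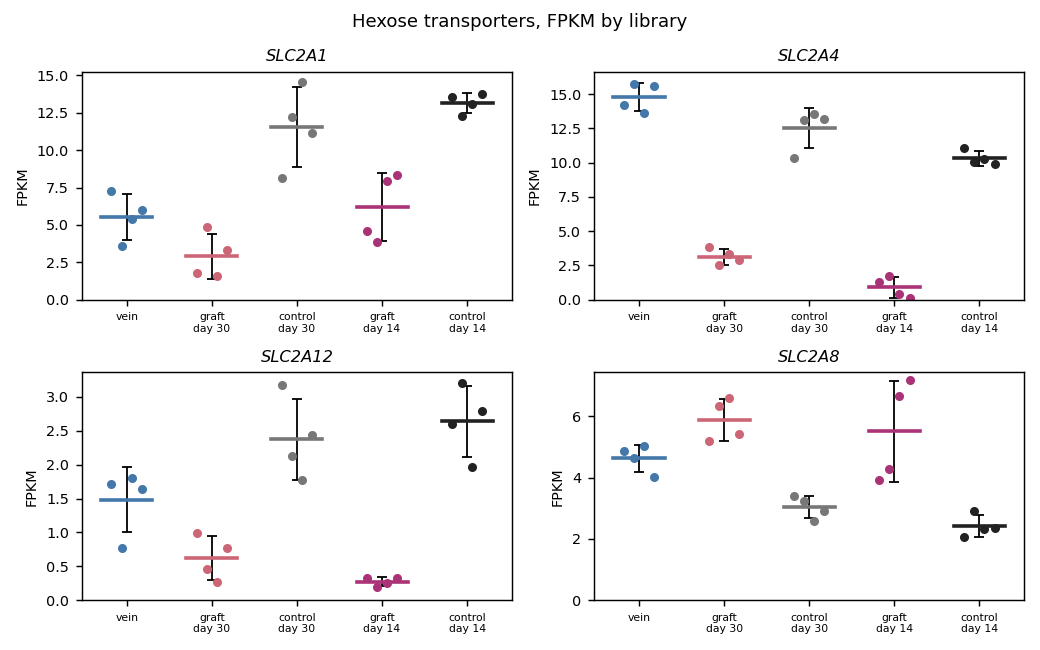
FPKM of SLC2A1, SLC2A4, SLC2A12 and SLC2A8 in each library (points), with group mean (coloured line) and SD (bar), for veins and for grafts and controls of day 30 and day 14. For SLC2A4 the grafts lie between 0.16 and 3.84 FPKM and the controls between 9.87 and 13.6 FPKM.

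The genes around glucose uptake that are not carriers were followed as a list of hexokinases, GLUT4 traffic proteins and regulators, of which 8 were tested. On day 30, 1 was higher and 2 lower in grafts, with a median log2 change of 0.08. On day 14, 3 were higher and 4 lower, with a median of -0.32. Over the alternative settings, 1 to 3 were higher and 1 to 3 lower on day 30, and 1 to 3 higher and 1 to 5 lower on day 14. The test called 26% of all genes higher and 11.6% lower on day 30, and 36.5% higher and 17% lower on day 14. The medians over all genes were 0.18 on day 30 and 0.26 on day 14. TBC1D1, a regulator of GLUT4 vesicles, rose to 14.1 ± 2.47 FPKM in grafts, against 3.23 ± 1.83 FPKM in controls, on day 30 and to 14.2 ± 1.79 FPKM in grafts, against 2.20 ± 0.657 FPKM in controls, on day 14, by 1.94 (SE 0.27, adjusted p = 1.85e-05) and 2.26 (SE 0.27, adjusted p = 1.49e-06) on the log2 scale. TXNIP, which promotes removal of GLUT proteins from the surface, fell to 152 ± 28.2 FPKM in grafts, against 295 ± 5.47 FPKM in controls, on day 14 (log2 change -0.97, SE 0.15, adjusted p = 2.72e-05). LNPEP, the aminopeptidase that travels with GLUT4, averaged 7.90 ± 2.13 FPKM in grafts, against 16.97 ± 1.10 FPKM in controls, on that day (log2 change -1.04, SE 0.19, adjusted p = 0.000198), a call lost only with both changes for nearly alike libraries (adjusted p = 0.0714). On day 30 TXNIP averaged 245 ± 47.8 FPKM in grafts and 193 ± 12.7 FPKM in controls (adjusted p = 0.104). Its controls were lower on day 30 than on day 14 (log2 change -0.61, SE 0.15, adjusted p = 0.0138). HIF1A, a hypoxia factor that raises glucose carriers, was lower in grafts on day 30, at 112 ± 20.5 FPKM in grafts and 281 ± 2.29 FPKM in controls (log2 change -1.34, SE 0.10, adjusted p = 1.31e-08). On day 14 it averaged 148 ± 10.9 FPKM in grafts and 156 ± 5.47 FPKM in controls (adjusted p = 0.55). Its controls were higher on day 30 than on day 14 (log2 change 0.85, SE 0.10, adjusted p = 2.96e-05).

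Of the SLC16 carriers described here, SLC16A13 rose on both days, SLC16A9 fell on both, and SLC16A1 fell on day 30 only. SLC16A1, or MCT1, moves lactate, pyruvate and ketone bodies with protons. Its level was 7.43, 6.80, 8.05 and 8.26 FPKM in grafts of day 30, against 10.8, 21.1, 27.8 and 14.8 FPKM in controls. On day 14 it was 10.4, 7.40, 12.1 and 12.7 FPKM in grafts, against 9.46, 9.57, 9.35 and 9.62 FPKM in controls. The day 30 groups did not overlap, but control replicates 2 and 3 of that day were high, and the day 14 groups overlapped. The log2 change was -1.11 (SE 0.20, adjusted p = 0.000296) on day 30 and 0.12 (SE 0.20, adjusted p = 0.631) on day 14, with a difference between the days of -1.23 (SE 0.29, adjusted p = 0.00946). That difference was lost with equal-sum scaling (adjusted p = 0.0643), with control day 14 as 1 sample (adjusted p = 0.19), without the mixture-like libraries (adjusted p = 0.0855) and with both (adjusted p = 0.589). The controls themselves differed: SLC16A1 was higher in controls of day 30 than in those of day 14, by 0.82 (SE 0.20, adjusted p = 0.0139), a call lost without control day 30 replicate 2 (adjusted p = 0.0512) and in 5 other settings. Grafts of day 30 and of day 14 differed by -0.41 (SE 0.20, adjusted p = 0.183), which did not pass.

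SLC16A13, a less studied member of the family, averaged 3.03 ± 0.684 FPKM in grafts and 0.770 ± 0.381 FPKM in controls of day 30, and 2.71 ± 0.792 FPKM in grafts and 0.345 ± 0.0666 FPKM in controls of day 14. Its log2 changes of 1.20 (SE 0.17, adjusted p = 1.99e-05) and 1.44 (SE 0.17, adjusted p = 1.09e-06) held in all settings where it was tested, which leaves out the filter of 5 FPKM. It passed the filter of 1 FPKM only through the grafts, where it is high, with 1 control and no vein at that level. SLC16A9, linked to carnitine transport in humans, averaged 1.21 ± 0.287 FPKM in grafts and 3.30 ± 0.196 FPKM in controls of day 30, and 1.49 ± 0.517 FPKM in grafts and 3.53 ± 0.249 FPKM in controls of day 14. It fell by 0.97 (SE 0.21, adjusted p = 0.00116) on day 30 and by 0.89 (SE 0.21, adjusted p = 0.00145) on day 14 on the log2 scale, the day 14 fall being lost with control day 14 as 1 sample (adjusted p = 0.0803) and with both changes (adjusted p = 0.179). SLC16A3, MCT4, the lactate exporter of glycolytic cells, never exceeded 0.91 FPKM and is listed at 0 in 16 libraries, all 8 grafts among them.

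Of 10 tested partners of lactate and pyruvate (lactate and pyruvate dehydrogenases, their kinases, the mitochondrial pyruvate carrier and embigin), 1 was higher and 1 lower in grafts on day 30 (median log2 change 0.06), and 4 were higher and none lower on day 14 (median -0.02). The settings gave 0 to 1 higher and 0 to 3 lower on day 30, and 1 to 5 higher and 0 to 1 lower on day 14. The shares over all genes were 26% higher and 11.6% lower on day 30, and 36.5% and 17% on day 14. LDHA, the lactate dehydrogenase of glycolytic tissue, rose to 162 ± 10.2 FPKM in grafts, against 105 ± 20.7 FPKM in controls, on day 30 (log2 change 0.64, SE 0.14, adjusted p = 0.00117) and to 322 ± 65.7 FPKM in grafts, against 52.5 ± 1.86 FPKM in controls, on day 14 (log2 change 2.57, SE 0.14, adjusted p = 1.03e-10). The day 30 rise did not pass with equal-sum scaling (adjusted p = 0.232). MPC1, a part of the mitochondrial pyruvate carrier, averaged 66.5 ± 10.4 FPKM in grafts, against 38.2 ± 3.34 FPKM in controls, on day 14 (log2 change 0.78, SE 0.18, adjusted p = 0.00166). That call was lost with equal-sum scaling (adjusted p = 0.0882), with control day 14 as 1 sample (adjusted p = 0.082) and with both changes for nearly alike libraries (adjusted p = 0.0955).

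**Figure D3:**
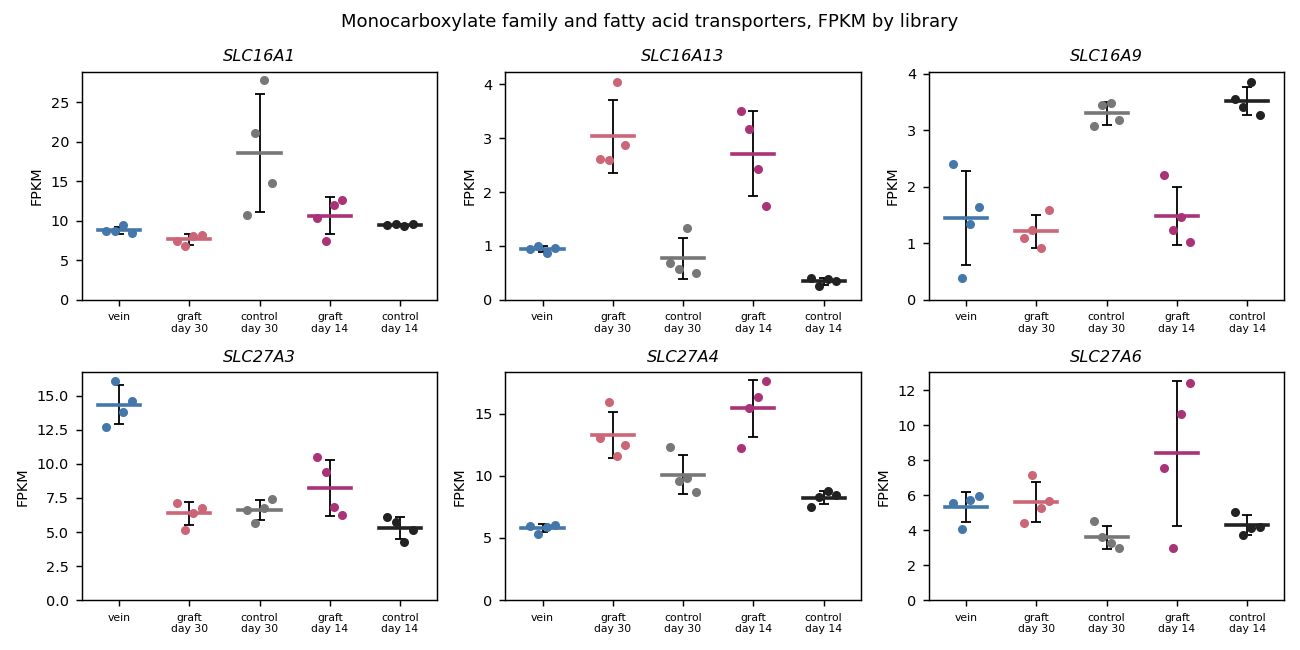
FPKM of 3 SLC16 and 3 SLC27 carriers in each library (points), with group mean (coloured line) and SD (bar). SLC16A1 separates grafts from controls on day 30 only, SLC16A13 is higher and SLC16A9 lower in grafts on both days, and SLC27A3 is highest in veins (12.7 to 16.1 FPKM).

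Of the 10 amino acid carriers tested, 2 rose and 1 fell in grafts on day 30, and 3 rose and 2 fell on day 14. SLC3A2, the heavy chain of CD98 that serves several SLC7 exchangers, was the most abundant carrier in grafts of both days, controls of day 14 and veins. In controls of day 30 the mean of SLC38A2 was slightly higher (58.7 against 56.7 FPKM). SLC3A2 held 56.7, 70.5, 101 and 78.5 FPKM in grafts of day 30, against 58.0, 57.0, 64.1 and 47.6 FPKM in controls, and 57.0, 46.8, 102 and 112 FPKM in grafts of day 14, against 44.7, 45.8, 46.2 and 45.6 FPKM in controls. The day 30 groups overlapped, and on day 14 graft replicates 3 and 4 were far above the controls while replicate 2 was just above them. The log2 change was 0.41 (SE 0.22, adjusted p = 0.159) on day 30, which did not pass, and 0.69 (SE 0.22, adjusted p = 0.0123) on day 14. The day 14 call was lost without graft replicate 3 (adjusted p = 0.0516) or 4 (adjusted p = 0.0528), under each other scaling (adjusted p = 0.1 to adjusted p = 0.294), with only the groups compared (adjusted p = 0.0646) and in all settings for nearly alike libraries (up to 0.428).

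SLC7A8, LAT2, a light chain that exchanges neutral amino acids, held 9.80, 10.2, 6.45 and 7.55 FPKM in grafts of day 30, against 3.98, 4.65, 3.71 and 4.09 FPKM in controls, and 10.9, 5.25, 20.3 and 25.5 FPKM in grafts of day 14, against 7.36, 6.99, 6.76 and 5.93 FPKM in controls. All day 30 grafts exceeded their controls, while on day 14 graft replicate 2 lay below the controls and replicates 3 and 4 were far above them. Its log2 change was 0.88 (SE 0.30, adjusted p = 0.0289) on day 30 and 0.89 (SE 0.30, adjusted p = 0.0192) on day 14. The day 30 call was lost without graft replicate 1 (adjusted p = 0.0682) or 2 (adjusted p = 0.0775) and without control replicate 1 (adjusted p = 0.0537), 3 (adjusted p = 0.0611) or 4 (adjusted p = 0.0546), and the day 14 call without graft replicate 3 (adjusted p = 0.0738) or 4 (adjusted p = 0.0819). Both were also lost under each other scaling (adjusted p up to 0.221 on day 30 and 0.184 on day 14) and in the settings for nearly alike libraries (up to 0.132 on day 30 and 0.464 on day 14). The day 14 call was lost with only the groups compared as well (adjusted p = 0.11).

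SLC7A5, LAT1, the other large neutral amino acid exchanger, passed on neither day. It held 2.47, 3.60, 3.72 and 3.12 FPKM in grafts of day 30, against 2.10, 5.69, 8.93 and 2.25 FPKM in controls, and 3.17, 1.70, 9.13 and 9.57 FPKM in grafts of day 14, against 2.68, 2.64, 2.17 and 1.89 FPKM in controls. Groups overlapped on both days, with graft replicates 3 and 4 high on day 14 and control replicates 2 and 3 high on day 30. The log2 change was -0.28 (SE 0.39, adjusted p = 0.625) on day 30 and 0.82 (SE 0.39, adjusted p = 0.0864) on day 14. SLC7A8 averaged more than SLC7A5 in each graft group, at 8.49 ± 1.79 against 3.23 ± 0.568 FPKM on day 30 and 15.5 ± 9.10 against 5.89 ± 4.04 FPKM on day 14. The order was not particular to grafts. It was the same in controls of day 14 (6.76 ± 0.606 against 2.345 ± 0.382 FPKM) and in veins (8.81 ± 1.26 against 0.438 ± 0.158 FPKM). In controls of day 30 the means were 4.11 ± 0.395 against 4.74 ± 3.25 FPKM.

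SLC1A4, ASCT1, an exchanger of alanine, serine and cysteine, fell on both days. Grafts of day 30 held 9.43, 11.7, 8.26 and 9.78 FPKM, against 18.4, 20.99, 15.9 and 22.0 FPKM in controls. Grafts of day 14 held 7.70, 7.64, 7.76 and 8.07 FPKM, against 14.7, 15.9, 13.9 and 13.3 FPKM in controls. The groups were well apart on both days and the day 14 grafts were nearly equal to each other. The log2 changes of -0.91 (SE 0.12, adjusted p = 7.46e-06) on day 30 and -0.81 (SE 0.12, adjusted p = 1.27e-05) on day 14 held in every setting. Its relative SLC1A5, ASCT2, the glutamine exchanger, was under the filter with at most 1.11 FPKM, and averaged 0.865 ± 0.262 FPKM in grafts and 0.422 ± 0.295 FPKM in controls of day 30, and 0.512 ± 0.164 FPKM in grafts and 0.145 ± 0.0733 FPKM in controls of day 14.

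SLC38A2, SNAT2, a sodium-coupled importer of small neutral amino acids and glutamine, held 58.5, 34.2, 49.3 and 52.3 FPKM in grafts of day 30, against 41.9, 66.4, 78.7 and 47.7 FPKM in controls, and 39.3, 22.8, 32.1 and 31.5 FPKM in grafts of day 14, against 41.1, 47.2, 39.1 and 40.9 FPKM in controls. Ranges overlapped on both days, and control replicates 2 and 3 of day 30 were the highest libraries. It passed on neither day, with log2 changes of -0.25 (SE 0.20, adjusted p = 0.356) on day 30 and -0.43 (SE 0.20, adjusted p = 0.0761) on day 14. SLC38A1, SNAT1, was low and uneven, with 1.65, 2.22, 0 and 0 FPKM in grafts of day 30, against 3.19, 0.69, 0.11 and 1.55 FPKM in controls, and 0, 0.93, 0.07 and 4.46 FPKM in grafts of day 14, against 2.99, 1.87, 1.93 and 2.29 FPKM in controls. Only the control day 14 libraries all reached 1 FPKM, and the tests did not pass (adjusted p = 0.692 on day 30 and 0.205 on day 14). SLC38A6, a poorly characterised relative, averaged 3.93 ± 1.53 FPKM in grafts and 0.873 ± 0.866 FPKM in controls of day 30, and 4.33 ± 1.98 FPKM in grafts and 0.505 ± 0.422 FPKM in controls of day 14, without overlap on either day. It rose by 1.46 (SE 0.33, adjusted p = 0.00177) on day 30 and by 1.79 (SE 0.33, adjusted p = 0.000163) on day 14, the day 14 call being lost with both changes for nearly alike libraries (adjusted p = 0.0887). With listed zeros in 2 controls it was not tested where genes with a listed 0 were left out. It passed the filter only through the grafts, where it is high, with 1 control and 1 vein at 1 FPKM or more.

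SLC43A2, LAT4, a uniporter of branched-chain and aromatic amino acids, is listed at 0 in all grafts of day 30 and all veins, and held 0, 0.64, 1.29 and 2.05 FPKM in controls of day 30. Grafts of day 14 held 0, 0, 5.44 and 5.83 FPKM, against 0, 0.21, 0.95 and 1.16 FPKM in controls. Only graft replicates 3 and 4 of day 14 exceeded 5 FPKM, and neither day passed (adjusted p = 0.22 on day 30 and 0.237 on day 14). SLC43A1, LAT3, averaged between 1.53 FPKM (grafts of day 14) and 2.58 FPKM (veins) and passed in no comparison. SLC7A2, a cationic amino acid carrier that imports arginine, averaged 0.688 ± 0.151 FPKM in grafts and 0.785 ± 0.208 FPKM in controls of day 30, and 0.623 ± 0.212 FPKM in grafts and 1.60 ± 0.383 FPKM in controls of day 14. It fell on day 14 by 0.68 on the log2 scale (SE 0.14, adjusted p = 0.000467), a call lost with both changes for nearly alike libraries (adjusted p = 0.0746). It passed the filter only through the controls of that day, the one group with all libraries above 1 FPKM.

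SLC43A3, which carries purine nucleobases in humans, rose on both days. Its values were 27.6, 37.6, 27.4 and 30.1 FPKM in grafts of day 30, against 26.3, 22.8, 17.9 and 20.9 FPKM in controls. In grafts of day 14 they were 36.0, 31.7, 39.5 and 46.1 FPKM, against 15.9, 16.98, 18.3 and 12.8 FPKM in controls. Grafts were above controls on both days, by a narrow gap on day 30. The log2 change was 0.47 (SE 0.14, adjusted p = 0.0132) on day 30 and 1.21 (SE 0.14, adjusted p = 1.01e-06) on day 14, and the difference between the days was -0.74 (SE 0.20, adjusted p = 0.0187). The day 14 rise held in every setting. The day 30 rise was lost without graft replicate 2 of that day (adjusted p = 0.055), with median-of-ratios (adjusted p = 0.0828) and equal-sum scaling (adjusted p = 0.53), and when the mixture-like libraries were left out (adjusted p = 0.0613) and with both changes (adjusted p = 0.0988). The difference was lost with equal-sum scaling (adjusted p = 0.159) and in the 3 settings for nearly alike libraries (adjusted p = 0.127 to adjusted p = 0.616).

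**Figure D4:**
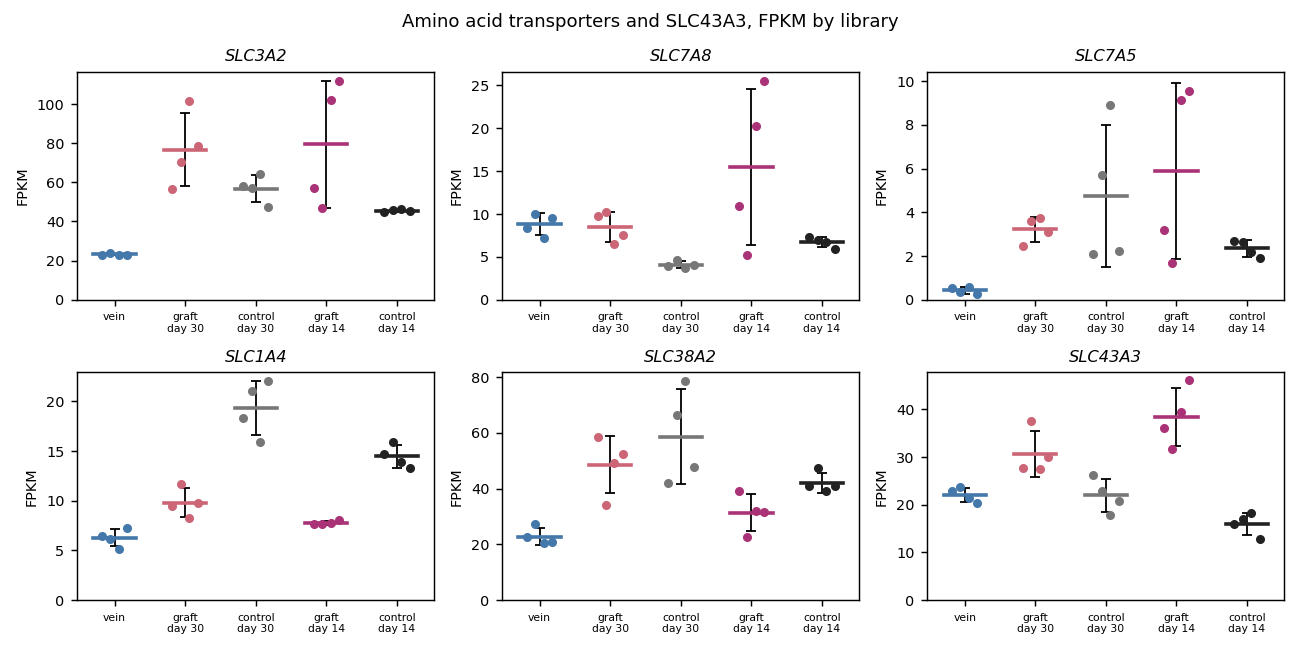
FPKM of 5 amino acid carriers and SLC43A3 in each library (points), with group mean (coloured line) and SD (bar). Graft replicates 3 and 4 of day 14 are the highest points of SLC3A2, SLC7A8 and SLC7A5, and SLC1A4 is lower in all grafts than in all controls of the same day.

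The spread inside the day 14 grafts followed the libraries. Replicates 3 and 4 were both above replicates 1 and 2 in 13 of the 23 tested carriers, SLC3A2, SLC7A5, SLC7A8, SLC43A2, SLC43A3, SLC2A1, SLC2A8, SLC16A1 and SLC27A4 among them. They were both below in 4, SLC2A4, SLC16A13, SLC27A3 and SLC43A1. This came to 73.9% of the tested carriers and 59.7% of all genes tested, and replicate 3 is the library of that group closest to a weighted mean of the others. Among controls of day 30, replicates 2 and 3 were both above replicates 1 and 4 for SLC16A1, SLC16A9, SLC2A1, SLC38A2 and SLC7A5, and both below for SLC2A10, SLC2A12 and SLC38A1, which made 34.8% of the tested carriers and 42.6% of all genes tested.

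Enzymes that make or use the amino acids carried were followed in further lists. Their counts stand beside shares over all genes of 26% higher and 11.6% lower on day 30, and 36.5% and 17% on day 14. Of 11 tested genes of glutamine, glutamate and proline metabolism, 1 was higher and 3 lower in grafts on day 30 (median log2 change 0.03), and 4 were higher and 3 lower on day 14 (median 0.25). Over the settings 1 to 3 were higher on day 30 and 1 to 6 on day 14, with 3 lower throughout. ALDH18A1, the first enzyme of proline synthesis from glutamate, fell to 19.4 ± 0.206 FPKM in grafts, against 45.5 ± 2.94 FPKM in controls, on day 30 (log2 change -1.19, SE 0.11, adjusted p = 1.86e-07) and to 21.8 ± 4.48 FPKM in grafts, against 59.0 ± 2.05 FPKM in controls, on day 14 (log2 change -1.42, SE 0.11, adjusted p = 9.03e-09). PRODH, which breaks proline down, rose to 6.40 ± 0.597 FPKM in grafts, against 1.34 ± 1.21 FPKM in controls, on day 30 (log2 change 1.80, SE 0.27, adjusted p = 3.84e-05) and to 4.11 ± 0.515 FPKM in grafts, against 0.422 ± 0.312 FPKM in controls, on day 14 (log2 change 1.87, SE 0.27, adjusted p = 1.3e-05). Among 6 genes of serine, glycine and one-carbon metabolism, 2 were higher on day 30 (median 0.36) and 4 on day 14 (median 1.05), and none was lower. The settings gave 1 to 2 higher and 0 to 1 lower on day 30 and 2 to 5 higher on day 14. SHMT2, the mitochondrial serine hydroxymethyltransferase, rose to 3.45 ± 0.309 FPKM in grafts, against 1.34 ± 0.522 FPKM in controls, on day 30 (log2 change 0.95, SE 0.16, adjusted p = 0.000124) and to 7.497 ± 1.85 FPKM in grafts, against 0.820 ± 0.133 FPKM in controls, on day 14 (log2 change 2.20, SE 0.16, adjusted p = 3.68e-09).

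Among 7 glutathione genes 3 were higher on day 30 (median log2 change 0.52) and 4 on day 14 (median 0.77), with none lower. For this list and those below, the shares over all genes were 26% higher and 11.6% lower on day 30. On day 14 they were 36.5% and 17%. Over the settings 1 to 6 were higher and 0 to 1 lower on day 30, and 2 to 7 were higher on day 14. GPX1, a glutathione peroxidase, averaged 1282 ± 386 FPKM in grafts, against 294 ± 8.24 FPKM in controls, on day 14 (log2 change 2.07, SE 0.18, adjusted p = 3.29e-08). On day 30 GPX1 averaged 1007 ± 207 FPKM in grafts and 395 ± 17.2 FPKM in controls (log2 change 1.32, SE 0.18, adjusted p = 1.35e-05). Of 10 genes of amino acid sensing, 2 were higher and 2 lower on each day (median 0.21 on day 30 and -0.15 on day 14). The settings gave 0 to 6 higher and 1 to 2 lower on day 30 and 2 to 3 higher and 0 to 5 lower on day 14. EIF4EBP1, a translation repressor under mTOR, rose to 158 ± 50.5 FPKM in grafts, against 48.0 ± 6.95 FPKM in controls, on day 14 (log2 change 1.65, SE 0.21, adjusted p = 4.05e-06). On day 30 EIF4EBP1 averaged 62.1 ± 12.7 FPKM in grafts and 30.4 ± 5.58 FPKM in controls (log2 change 1.00, SE 0.21, adjusted p = 0.0012). DDIT3, a stress transcription factor, was lower in grafts on day 30, at 37.8 ± 4.10 FPKM in grafts and 86.0 ± 14.6 FPKM in controls (log2 change -1.16, SE 0.13, adjusted p = 2.21e-06). On day 14 DDIT3 averaged 34.0 ± 6.45 FPKM in grafts and 36.2 ± 2.68 FPKM in controls (adjusted p = 0.538). Its controls were higher on day 30 than on day 14 (log2 change 1.21, SE 0.13, adjusted p = 1.81e-05). Of 5 genes of arginine and branched-chain amino acid metabolism, none was higher and 1 lower on day 30 (median 0.01), and 1 was higher and 1 lower on day 14 (median 0.02). Over the settings 0 to 1 were higher and 0 to 2 lower on day 30, and 0 to 3 higher and 0 to 2 lower on day 14. In the list of creatine and taurine enzymes, 4 genes were tested, of which 2 were lower and none higher on day 30 (median -1.24), and 3 were lower and 1 higher on day 14 (median -1.25). In the settings 1 to 3 were lower on day 30, and 0 to 3 lower and 0 to 1 higher on day 14. CKB, brain-type creatine kinase, fell to 147 ± 31.6 FPKM in grafts, against 333 ± 54.8 FPKM in controls, on day 30 (log2 change -1.19, SE 0.15, adjusted p = 5.69e-06). On day 14 CKB averaged 148 ± 25.6 FPKM in grafts and 286 ± 18.5 FPKM in controls (log2 change -0.96, SE 0.15, adjusted p = 2.74e-05). The EIF4EBP1 call of day 30 was lost with equal-sum scaling (adjusted p = 0.0669), and the CKB call of day 14 with both changes for nearly alike libraries. The other calls given for these named enzymes held in every setting where they were tested, which was 33 of the 34 for PRODH.

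The 3 fatty acid carriers tested all rose in grafts on day 14, and SLC27A4 alone of them passed on day 30. SLC27A4, FATP4, an acyl-CoA synthetase of the endoplasmic reticulum, held 13.1, 15.9, 11.6 and 12.5 FPKM in grafts of day 30, against 12.3, 9.54, 9.84 and 8.66 FPKM in controls, and 12.3, 15.4, 16.4 and 17.6 FPKM in grafts of day 14, against 7.51, 8.27, 8.75 and 8.44 FPKM in controls. Only graft replicate 3 of day 30 fell inside its control range, and on day 14 the groups were apart. The log2 change was 0.37 (SE 0.12, adjusted p = 0.0232) on day 30 and 0.82 (SE 0.12, adjusted p = 1.72e-05) on day 14. The day 30 call was lost without graft replicate 2 (adjusted p = 0.0898), control replicate 2 (adjusted p = 0.0581) or control replicate 4 (adjusted p = 0.0807), under each other scaling (up to adjusted p = 0.686) and in 3 other settings, and the day 14 call only with both changes for nearly alike libraries (adjusted p = 0.0576).

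SLC27A3, FATP3, held 7.12, 5.18, 6.41 and 6.73 FPKM in grafts of day 30, against 6.60, 5.67, 6.79 and 7.41 FPKM in controls, and 10.5, 9.42, 6.83 and 6.24 FPKM in grafts of day 14, against 6.08, 5.76, 4.27 and 5.16 FPKM in controls. The groups overlapped on day 30, and on day 14 grafts exceeded controls narrowly, replicates 1 and 2 most. The log2 change was -0.05 (SE 0.15, adjusted p = 0.818) on day 30 and 0.53 (SE 0.15, adjusted p = 0.00516) on day 14, the day 14 call being lost under each other scaling (adjusted p = 0.0781 to adjusted p = 0.281) with control day 14 as 1 sample (adjusted p = 0.12) and with both changes (adjusted p = 0.161). SLC27A6, FATP6, known from human heart, averaged 8.39 ± 4.13 FPKM in grafts and 4.28 ± 0.562 FPKM in controls of day 14 (log2 change 0.70, SE 0.27, adjusted p = 0.0357). Graft replicate 2 of that day stood below the controls, and the call was lost without graft replicate 1 (adjusted p = 0.0603), 3 (adjusted p = 0.117) or 4 (adjusted p = 0.137), without control replicate 2 (adjusted p = 0.0811), 3 (adjusted p = 0.066) or 4 (adjusted p = 0.0648) and in 8 other settings.

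Of 15 tested genes of fatty acid binding, storage and oxidation, 4 were higher and 1 lower in grafts on day 30 (median log2 change 0.02), and 7 were higher and 2 lower on day 14 (median 0.55). Over the settings 2 to 6 were higher and 1 to 2 lower on day 30, and 3 to 11 higher and 0 to 3 lower on day 14. Of all genes tested, 26% were higher and 11.6% lower on day 30, and 36.5% higher and 17% lower on day 14. FABP5, a fatty acid binding protein of macrophages and endothelium, rose to 103 ± 26.6 FPKM in grafts, against 4.35 ± 1.75 FPKM in controls, on day 30 (log2 change 4.30, SE 0.30, adjusted p = 9.66e-09) and to 120.4 ± 61.5 FPKM in grafts, against 1.66 ± 0.352 FPKM in controls, on day 14 (log2 change 5.37, SE 0.30, adjusted p = 1.87e-10). FABP4, of adipocytes and macrophages and itself an adipocyte marker here, averaged 508 ± 343 FPKM in grafts, against 22.7 ± 0.837 FPKM in controls, on day 14 (log2 change 4.12, SE 0.59, adjusted p = 1.34e-05). ACADM, medium-chain acyl-CoA dehydrogenase of mitochondrial oxidation, fell to 12.6 ± 2.19 FPKM in grafts, against 29.1 ± 1.46 FPKM in controls, on day 30 (log2 change -1.16, SE 0.18, adjusted p = 5.81e-05). Macrophage and adipocyte markers were higher in grafts by the sums given above, and their part was not tested.

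Of the 74 carriers, 51 were not tested, 42 of them under 1 FPKM in every library and 3 listed at 0 in all 20 (SLC2A2, SLC38A5 and SLC7A13). None of the 13 SLC6 genes was tested, and their highest value was 1.39 FPKM, of the serotonin carrier SLC6A4 in a vein. SLC7A11, the cystine and glutamate exchanger, held 0.57, 0.35, 0.23 and 0.36 FPKM in grafts of day 30, against 0.07, 0.02, 0.13 and 0.27 FPKM in controls, and 0.26, 0.05, 1.86 and 1.40 FPKM in grafts of day 14, against 0.06, 0.04, 0.03 and 0 FPKM in controls. Only graft replicates 3 and 4 of day 14 passed 1 FPKM. SLC7A10, an exchanger of small neutral amino acids found in neurons and adipocytes, reached 2.70 FPKM in vein replicate 4, the highest value among untested carriers. SLC7A1, the main arginine importer of many cells, and SLC6A6, the taurine carrier, reached at most 0.92 and 0.97 FPKM and are listed at 0 in 13 and 17 libraries. No row is named SLC2A3, SLC27A1 or SLC6A8, and these were not analysed here.

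Between the grafts of day 30 and those of day 14, 3 of the 23 carriers passed, 2 higher and 1 lower on day 30, where the test called 16.3% of all genes, 8.01% higher and 8.31% lower. SLC2A4 rose, at 3.14 ± 0.574 FPKM on day 30 and 0.905 ± 0.740 FPKM on day 14 (log2 change 1.19, SE 0.20, adjusted p = 0.000777). No day 14 graft reached the lowest day 30 graft, one of 2 carriers without overlap (15.7% of all genes). SLC2A1 fell, at 2.90 ± 1.52 FPKM on day 30 and 6.19 ± 2.28 FPKM on day 14 (log2 change -0.90, SE 0.26, adjusted p = 0.0275), and SLC38A2 rose, at 48.6 ± 10.3 FPKM on day 30 and 31.4 ± 6.73 FPKM on day 14 (log2 change 0.61, SE 0.20, adjusted p = 0.0436). The graft libraries of the 2 days overlapped for SLC2A1 and SLC38A2. None of these calls held in every setting: SLC2A4 was lost with only the groups compared (adjusted p = 0.0624), with the block (adjusted p = 0.144) and with both changes (adjusted p = 0.0996). SLC2A1 was lost without graft day 30 replicate 1 (adjusted p = 0.0923) or 3 (adjusted p = 0.0833) and without graft day 14 replicate 3 (adjusted p = 0.0843) or 4 (adjusted p = 0.0832). It was also lost with equal-sum scaling (adjusted p = 0.168), only the groups compared (adjusted p = 0.161), weights per group (adjusted p = 0.0744), the block (adjusted p = 0.157) and all 3 settings for nearly alike libraries (adjusted p = 0.0612 to adjusted p = 0.294). SLC38A2 was lost without any one of 13 libraries, with values between adjusted p = 0.0518 (control day 14 replicate 2) and adjusted p = 0.135 (graft day 30 replicate 1). The others were graft day 30 replicates 3 and 4, graft day 14 replicates 2, 3 and 4, control day 14 replicates 1, 3 and 4, and vein replicates 1, 3 and 4. SLC38A2 was lost in 7 other settings too, with the highest value under the block (adjusted p = 0.663). Without graft day 14 replicate 2, 5 carriers passed in all, and without graft day 14 replicate 3 or 4 or graft day 30 replicate 3 only 1 did.

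Control arteries of day 30 and of day 14 were both unoperated, and 3 carriers passed between them, 2 higher and 1 lower on day 30, where the test called 10.7% of all genes, 6.28% higher and 4.45% lower. None of these calls held in every setting. SLC16A1 was higher on day 30, as given above. SLC1A4 was higher, at 19.3 ± 2.74 FPKM on day 30 and 14.5 ± 1.14 FPKM on day 14 (log2 change 0.39, SE 0.12, adjusted p = 0.0408), and SLC7A2 was lower, at 0.785 ± 0.208 FPKM on day 30 and 1.60 ± 0.383 FPKM on day 14 (log2 change -0.54, SE 0.14, adjusted p = 0.0178). Control libraries of the 2 days did not overlap for 5 of the 23 carriers (22.8% of all genes), SLC16A1 and SLC7A2 among them. SLC1A4 was lost without control day 30 replicate 1 (adjusted p = 0.056), 2 (adjusted p = 0.118) or 4 (adjusted p = 0.11), control day 14 replicate 1 (adjusted p = 0.0782), 3 (adjusted p = 0.1) or 4 (adjusted p = 0.115), graft day 30 replicate 4 (adjusted p = 0.0532) or graft day 14 replicate 3 (adjusted p = 0.0507). SLC1A4 was also lost in 7 other settings, the block among them (adjusted p = 0.367). SLC7A2 was lost without control day 30 replicate 1 (adjusted p = 0.0536), without control day 14 replicate 1 (adjusted p = 0.068) or 3 (adjusted p = 0.0599) and in 5 other settings, equal-sum scaling (adjusted p = 0.142) and the block (adjusted p = 0.0775) among them. It passed the filter only through the controls of day 14, the higher group of this comparison. Without control day 30 replicate 1 or 2, or without control day 14 replicate 1 or 3, only 1 of the 23 carriers passed. Both control groups enter the difference between the graft effects of the days.

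Unoperated veins were set against both control groups together. Of the 23 carriers 13 passed, 3 higher and 10 lower in veins, where the test called 37.1% of all genes, 25.2% higher and 12% lower. The median log2 change was -0.51, against 0.14 over all genes, and vein and control libraries did not overlap for 11 of the 23 (24.2% of all genes). Amino acid carriers were lower in veins in 5 of 10 cases and higher in none, and their summed level was 70.8 ± 3.73 FPKM in veins, against 153 ± 24.7 FPKM in controls of day 30 and 120 ± 4.37 FPKM in controls of day 14. SLC3A2 held 22.9, 23.8, 23.0 and 23.0 FPKM in veins, below every control. It fell by 1.10 on the log2 scale (SE 0.19, adjusted p = 0.000175), and SLC38A2 at 22.8 ± 3.17 FPKM fell by 1.07 (SE 0.17, adjusted p = 7.98e-05). SLC1A4, with 6.47, 6.19, 5.18 and 7.27 FPKM in veins, fell by 1.29 (SE 0.10, adjusted p = 2.24e-08). These 3 calls held in every setting. SLC7A5 was nearly absent from veins, with 0.56, 0.35, 0.58 and 0.26 FPKM and a log2 change of -1.52 (SE 0.34, adjusted p = 0.00175), lost only with both changes for nearly alike libraries (adjusted p = 0.114).

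SLC27A3 had the largest log2 rise of the 23 carriers in veins, at 12.7, 16.1, 13.8 and 14.6 FPKM, above every artery library, controls and grafts alike. Its log2 change was 1.15 (SE 0.13, adjusted p = 1.43e-06), in every setting. SLC2A8 rose to 4.62 ± 0.442 FPKM in veins (log2 change 0.60, SE 0.13, adjusted p = 0.00147). SLC2A1 fell in veins too, at 7.28, 3.58, 5.37 and 5.97 FPKM, all below the controls (log2 change -1.04, SE 0.23, adjusted p = 0.00156). SLC2A4, in contrast, held 14.2, 15.8, 13.7 and 15.6 FPKM in veins, all above every control, but did not pass, with a log2 change of 0.35 (SE 0.17, adjusted p = 0.127). The remaining falls were SLC16A9, SLC27A4, SLC16A1, SLC2A12 and SLC7A2, with log2 changes between -0.92 and -0.42.

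Several of those vein calls depended on libraries or settings. SLC16A1 was lost without vein replicate 1 (adjusted p = 0.0631), 2 (adjusted p = 0.0657) or 4 (adjusted p = 0.0741) or control day 30 replicate 2 (adjusted p = 0.0553) and in 5 other settings (adjusted p = 0.0978 to adjusted p = 0.38). SLC2A12 was lost without vein replicate 2 (adjusted p = 0.0852) and with control day 14 as 1 sample (adjusted p = 0.0775). SLC7A2 was lost with the block (adjusted p = 0.0568). With both changes for nearly alike libraries 4 of the 13 calls held, those of SLC3A2, SLC38A2, SLC1A4 and SLC27A3. Beside these, smooth muscle markers summed to 3620 to 3917 FPKM in veins and 6085 to 8846 FPKM in control arteries, and endothelial markers to 713 to 944 FPKM in veins and 38.9 to 94.8 FPKM in control arteries. Striated muscle markers summed to 28.0 to 40.0 FPKM in veins and 470 to 621 FPKM in control arteries. Their part in the difference between vessels was not tested.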

How the data were processed

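Total RNA from 20 rabbit vessel samples was sequenced with paired reads (NovaSeq X Plus), per the labels. The authors deposited 1 table of FPKM per transcript, the only unit used here, made with fastp, HISAT2, StringTie, RSEM and DESeq2 per the submitters' processing notes. Versions and genome build are not given in the sources used here. The table holds no read counts, so depth and counting error are unknown. Values have 2 decimals, and whether that resolves a single read cannot be told without the depth.

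Groups came from the labels, and vein columns were matched by library name. Transcripts were summed per gene, and a gene was tested where 4 or more libraries held 1 FPKM or more. limma 3.58.1 in R 4.3.3 fitted a mean per group to log2(FPKM + 1), a pseudocount of 1, over all 20 libraries with variances that follow the level. Two-sided p-values were adjusted by Benjamini-Hochberg over 8657 genes at 0.05 in each of 6 contrasts, and errors of log2 changes are limma's standard errors. Tables and plots used Python 3.11.15, pandas 2.3.3 and matplotlib 3.10.9. The fit was checked on simulated data.

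The alternatives were a pseudocount of 0.1, no filter, a filter of 5 FPKM, 3 other scalings, only the groups compared, weights per library or group, the replicate number as a block, 3 settings for nearly alike libraries, genes with a listed 0 left out, and each library left out. A mixture-like library is one close to a weighted mean of the other 3 of its group. Carriers given in full are the up to 8 with the largest called change on each day, or up to 5 for veins and between graft days, where the higher group averaged 5 FPKM or more, plus a named list, and 1 of them is not reported here. List genes are up to 3 per list with the smallest adjusted p. The members, lists and settings were chosen with earlier results of these data known. No sequences are printed, and no genome was used.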

Additional observations from a re-analysis of the deposited data

Results flagged for a closer look

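In 3 of the 75 groups of 4 libraries examined for the 15 carriers that met the rule for a full account, 1 library stood apart from the other 3 by Dixon's ratio of gap to range at its 95% limit. Chance flags about 1 in 20 groups, which is near the number seen. SLC27A4 was lowest in vein replicate 2, at 5.30 FPKM. SLC3A2 was highest in that same library, at 23.8 FPKM. SLC2A4 was lowest in control day 30 replicate 1, at 10.3 FPKM.

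The graft effect differed between day 30 and day 14, in a test of the difference itself, for 3 carriers. The difference of log2 changes, day 30 minus day 14, was 0.94 for SLC2A4 (SE 0.28, limma adjusted p = 0.0365), -1.23 for SLC16A1 (SE 0.29, adjusted p = 0.00946) and -0.74 for SLC43A3 (SE 0.20, adjusted p = 0.0187). None of the 3 held in every alternative setting. For SLC16A1 the controls of day 30 (10.8 to 27.8 FPKM) were above those of day 14 (9.35 to 9.62 FPKM), while grafts were at 6.80 to 8.26 FPKM on day 30 and 7.40 to 12.7 FPKM on day 14.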

How the results depend on the processing

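Main counts of carriers called were 13 for grafts against controls on day 30 and 17 on day 14, 3 for the difference between the days, 3 for grafts of day 30 against day 14, 3 for controls of day 30 against day 14, and 13 for veins. No called carrier reversed its sign, and 9 of the 13 calls of day 30, 6 of the 17 of day 14, 4 of the 13 in veins and 0 of the other 9 held in every setting where they were tested. That was all 34 for 5, 4 and 4 of these kept calls, and 33 for 4 of day 30 and 2 of day 14, which the filter of 5 FPKM or the one on listed zeros left out. With control day 14 as 1 sample the count was 10 on day 14, 0 for the difference, 1 between graft days and 0 between controls. Leaving out the mixture-like libraries gave 0, 1 and 0 for the last 3, and both changes gave 6 on day 14, 0, 0 and 0 for those 3, and 4 in veins. Equal-sum scaling left 1 call for the difference. Weights per library gave 15 for the difference, 17 between graft days and 12 between controls, and weights per group gave 1 between graft days. With only the groups compared, 0 carriers passed between graft days. A pseudocount of 0.1 gave 5 between controls, and no filter gave 21 in veins. Beside the counts of 0, limma gave between 0 and 5 carriers at an unadjusted p under 0.05.

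Leaving out 1 library at a time gave 10 to 14 calls on day 30, 13 to 17 on day 14, 2 to 4 for the difference, 1 to 5 between graft days, 1 to 4 between controls and 12 to 15 in veins. Same-numbered graft and control libraries did not clearly deviate together (correlations from -0.180 to 0.063 on day 30 and from -0.107 to 0.127 on day 14). Weak correlations cannot decide whether a graft and a control of the same number come from the same animal. The main fit leaves such pairing out. With the replicate number as a block, 13 carriers passed on day 30, 16 on day 14, 4 for the difference, 0 between graft days, 0 between controls and 10 in veins. The causes of these shifts were not tested. Unknown depth limits what can be said of carriers near 1 FPKM.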

Other observations

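Among carriers too low to test, some differed between libraries of the veins. SLC6A2, the noradrenaline carrier of sympathetic nerves, held 1.02, 0.10, 1.28 and 1.09 FPKM in vein replicates 1 to 4, against 0.20 to 0.52 FPKM in controls of day 30 and 0.16 to 0.21 FPKM in controls of day 14. SLC7A10 held 1.73, 0.10, 2.34 and 2.70 FPKM in the same veins. Both were lowest in replicate 2, which was also the lowest vein library of SLC2A1, SLC16A9, SLC2A12 and SLC27A6. SLC38A11, a sodium-coupled relative of SLC38A2, held 0 to 0.04 FPKM in grafts of both days, against 0.40 to 1.06 FPKM in controls of day 30 and 0.29 to 0.61 FPKM in controls of day 14.

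The table also holds 3 rows without a gene name whose description is that of such carriers. They fall outside the rule. Among them, the highest values are 0.01 FPKM for SLC6A14 and 0.42 FPKM for a further SLC7A13 row.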
